A study of Mus musculus with 18 samples.

Results

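The 3 RNA-seq libraries of dendritic cells (DCs) in the loosest collagen gel, 1.7 mg/ml, were compared with the 6 libraries of DCs kept in suspension, which are 9 of the 18 libraries of the series. The libraries were chosen by their sample titles, both suspension groups were pooled, and the biological replicate number entered the model as a block. The comparison addresses which transcripts already differ when DCs are placed in the most permissive of 4 gels, the others being at 2.6, 3.5, or 4.4 mg/ml, rather than in the same chamber without a matrix. In every group, DCs were grown from the bone marrow of wild-type C57Bl6/J mice aged 8 to 12 weeks in medium with GM-CSF hybridoma supernatant, received LPS at 200 ng/ml on day 8 of differentiation, and were loaded into migration chambers 24 hours later. Per the study's methods, gels were taken for RNA 5 hours after the CCL19 gradient was introduced, which followed polymerization of the collagen. No separate time is given there for the suspension. The gels were made of bovine collagen, and the DCs in them were exposed to a source of the chemokine CCL19. The suspension libraries are titled with CCL19 in 3 cases and without it in the other 3, but their library names give the opposite assignment, so no effect of CCL19 was derived. The matrix, the embedding of cells in it, and any constant difference in CCL19 exposure cannot be told apart in this design. Whether a replicate is a single mouse or a pool is not given in the sources used here.

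DCs are antigen-presenting cells that, once matured by microbial products such as LPS, carry the chemokine receptor CCR7 and crawl along CCL19 toward lymphatic vessels. They move in a three-dimensional matrix without strong adhesion, squeezing through pores, and sense microbes and damage through Toll-like receptors and C-type lectins whose signals induce cytokines and chemokines. Bone marrow cultured with GM-CSF yields DCs together with macrophage-like cells and remaining granulocytes, so RNA from other leukocytes can be present in such libraries.

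The libraries held 14832358 to 18879083 counts at 1.7 mg/ml and 13849590 to 23014871 in suspension, and a count of 3, taken as the floor of detection, corresponded to 0.158 to 0.231 CPM (counts scaled to library size) and 0.116 to 0.215 CPM, respectively (counting error only). Transcripts that define LPS-matured DCs were abundant in both groups. Ccr7, the receptor of CCL19, had 2342 to 6425 CPM in suspension (median 3874) and 4102 to 4153 CPM at 1.7 mg/ml. Of 15 DC markers tested, 0 passed the threshold by edgeR's quasi-likelihood test in either direction, and their summed level ranged from 32903 to 104253 CPM in suspension and from 61014 to 93339 CPM at 1.7 mg/ml. Cd209a was at or near 0 in all 9 libraries, with at most 0.182 CPM.

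At a false discovery rate (FDR) of 0.1, the study's own threshold, 403 of 13844 genes differed between 1.7 mg/ml and suspension (2.91%), of which 207 were higher (1.50%) and 196 lower (1.42%) in the gel. Of these, 128 were higher by more than 1 on the log2 scale and 119 lower by more than 1. The sign was the same in each of the 3 replicates for 402 of the 403. The blocked test on these libraries favors such agreement, so it is not separate support. All 3 gel libraries lay above all 6 suspension libraries for 93 of the 207 higher genes and below them for 135 of the 196 lower genes. Among all genes tested, 271 (1.96%) lay entirely above and 457 (3.30%) entirely below. The largest rises among genes with a proper name were those of Tal2, Cyp1a1, Rnf182, Tlcd2, and Hspa1b, and the largest falls were those of Ear1, Ccr3, and Alox15. The number called rested strongly on the replicate block and on each gel library. Without the block 5 genes passed, all higher, and without the gel library of replicate 1, 2, or 3 the number was 10, 18, or 91. Leaving out all libraries of replicate 1, 2, or 3 gave 16, 34, or 95 genes. The number rose to 760 without replicate 2 at 4.4 mg/ml, a library outside the comparison that shares the estimate of the spread. With offsets for GC content and exon length, 418 genes were higher and 201 lower. The study's methods name DESeq2 rather than edgeR. DESeq2 called 1095 genes here with the block and 141 without it.

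**Figure D1:**
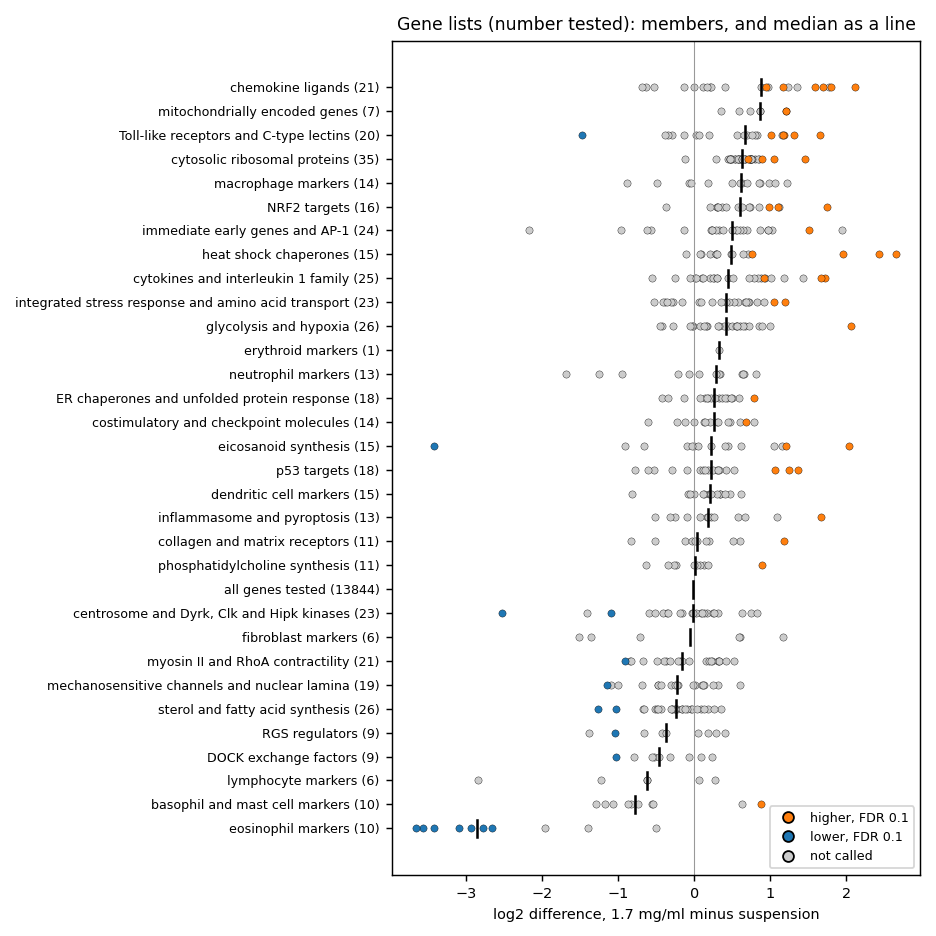
Log2 difference (1.7 mg/ml minus suspension, x axis) of each tested member of the gene lists that hold a called gene or mark a cell type, with the number tested in parentheses. Orange points were higher and blue points lower at an FDR of 0.1, and black lines are list medians, from -2.86 for eosinophil markers to 0.87 for chemokine ligands.

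Heat shock chaperones, which hold or refold unfolded proteins, were among the most strongly raised transcripts. Of 15 members tested, 4 were higher (Hspa4l, Hspa1b, Hspa1a, and Hspa8) and 0 lower, where 1.50% of all genes tested were higher. The median log2 difference was 0.48 against -0.02 over all genes tested. The list held 2, 2, and 4 higher genes by edgeR without replicate 1, 2, and 3. Hspa4l encodes a chaperone of the Hsp110 family (ENSMUSG00000025757, chromosome 3 from 40744495 to 40796103 in GRCm38). It had 16.1, 28.8, and 50.7 CPM as the lowest, median, and highest suspension values, and 229, 187, and 77.7 CPM in gel replicates 1, 2, and 3. All 3 gel libraries therefore lay above all 6 suspension libraries. The log2 difference was 2.43 ± 0.35 (SE), or 5.38-fold (edgeR's quasi-likelihood test, adjusted p = 0.00448), and an exact two-sided permutation test over the 9 libraries gave p = 0.0119, the smallest that 84 arrangements allow. Hspa4l passed in each of the 18 alternative settings tried. The inducible Hsp70 gene Hspa1b had 1.07 to 8.73 CPM in suspension (median 3.37) and 35.5, 23.5, and 6.83 CPM in the gel. Its lowest gel value overlapped the highest suspension value, yet within each replicate the gel library exceeded both suspension libraries, by 2.40, 3.46, and 1.86 on the log2 scale over their mean. The fitted difference was 2.66 ± 0.41 (SE; adjusted p = 0.00662, edgeR). Its neighbor Hspa1a had 1.00 to 4.21 CPM in suspension and 15.5, 7.33, and 6.36 CPM in the gel, without overlap, a difference of 1.96 ± 0.33 (SE; adjusted p = 0.0124, edgeR). The constitutive Hspa8 had 122 to 423 CPM in suspension and 263, 475, and 429 CPM in the gel, and changed by 0.76 ± 0.21 (SE; adjusted p = 0.0746, edgeR). It passed in 7 of the 18 alternative settings. The co-chaperone Dnajb1 had 69.7 to 126 CPM in suspension and 175, 124, and 152 CPM in the gel and did not pass (adjusted p = 0.116, edgeR), and Hsph1 had a difference of 0.21 ± 0.23 (SE). The summed level of the list was 1553 to 3441 CPM in suspension and 2668 to 2998 CPM in the gel, within the suspension range.

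The promoters of Hspa1a and Hspa1b are shown because these 2 genes rose together and are near copies, so that reads of one can be counted to the other. The 300-base windows, 250 bases before to 50 after the start, come from RefSeq (GRCm38.p6, minus strand, written 5′ to 3′) and were the same at 296 positions. Capitals mark GAANNTTC, the core of the heat shock element bound by HSF1.
Hspa1a, chr17:34972107-34972406: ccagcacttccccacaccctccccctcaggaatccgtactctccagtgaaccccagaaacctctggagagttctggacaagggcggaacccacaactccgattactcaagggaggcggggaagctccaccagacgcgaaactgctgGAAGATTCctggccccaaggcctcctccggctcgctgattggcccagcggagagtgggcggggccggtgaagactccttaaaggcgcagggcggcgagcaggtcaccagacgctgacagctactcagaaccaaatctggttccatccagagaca
Hspa1b, chr17:34959189-34959488: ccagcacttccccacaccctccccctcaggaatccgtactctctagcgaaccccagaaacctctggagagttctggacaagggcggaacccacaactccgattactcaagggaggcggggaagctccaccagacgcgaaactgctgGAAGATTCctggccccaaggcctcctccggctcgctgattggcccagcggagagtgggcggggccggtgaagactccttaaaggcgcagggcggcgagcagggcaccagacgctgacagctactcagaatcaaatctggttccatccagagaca
Each window holds this motif once, at the same place. The motif was chosen after the leading genes were seen, and it occurred in 7.69% of the 156 higher genes with a promoter, in 5.00% of the 160 lower genes, and in 6.94% of the 10001 genes tested that had one. The AP-1 motif TGANTCA was found in 10.3% of the higher genes, 5.63% of the lower genes, and 6.37% of all. Of the remaining motifs searched on both strands, TGACGTCA was found in 2.56%, 1.25%, and 3.54%, ACGTG in 27.6%, 30.6%, and 29.2%, TGATGNAA in 2.56%, 3.13%, and 2.87%, and GCGTG, also chosen after the leading genes were seen, in 44.9%, 54.4%, and 55.2%, respectively. An NF-κB-like motif was found in 67.9%, 76.3%, and 71.8%, and a serum-response-like motif, which can overlap it, in 83.3%, 92.5%, and 88.3%.

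Some transcripts of secreted inflammatory mediators passed the threshold. Of 25 cytokines and interleukin-1 family members tested, 3 rose and 0 fell (median log2 difference 0.45), where 1.50% of all genes tested rose. Il1b, encoding interleukin-1β (ENSMUSG00000027398, chromosome 2 from 129364570 to 129371139), had 127, 325, and 805 CPM as the lowest, median, and highest suspension values and 2231, 838, and 731 CPM in gel replicates 1 to 3. One gel library lay below the highest suspension library, which belongs to replicate 1, whereas within replicates the differences were 1.63, 1.41, and 2.08. The fitted difference was 1.67 ± 0.29 (SE), or 3.18-fold (adjusted p = 0.0148, edgeR). Il1a, the other interleukin-1 agonist, had 16.5 to 129 CPM in suspension and 277, 100, and 142 CPM in the gel, a difference of 1.72 ± 0.38 (SE; adjusted p = 0.0404, edgeR). Il15, which sustains NK and memory T cells, had 9.23 to 20.9 CPM in suspension and a mean of 31.0 ± 8.44 CPM (SD, n = 3) in the gel, with no overlap (0.92 ± 0.26, SE; adjusted p = 0.0933, edgeR). Tnf differed by 0.10 ± 0.37 (SE), Il12b by -0.06 ± 0.37, and Il6 by 0.87 ± 0.38, and none of these 3 passed the threshold. Of the list, 2, 1, and 1 members passed without the libraries of replicate 2, without those of replicate 3, and with the suspension libraries titled without CCL19 as the sole control, and 0 passed without replicate 1.

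Among 21 chemokine ligands tested, 6 rose (1.50% of all genes tested did) and 0 fell, with a median log2 difference of 0.87. Of these, 4 (Cxcl1, Cxcl5, Ppbp, and Pf4) lie within 1 cluster of chromosome 5 that encodes CXC chemokines, several of which attract neutrophils through CXCR2. Cxcl1 had 1.45, 5.72, and 18.7 CPM as the lowest, median, and highest suspension values and 32.4, 15.6, and 10.7 CPM in gel replicates 1 to 3 (1.58 ± 0.37, SE; adjusted p = 0.0473, edgeR). Ppbp, the platelet basic protein gene, had 1.33 to 7.97 CPM in suspension and 15.2, 12.0, and 10.8 CPM in the gel, with no overlap (1.70 ± 0.40, SE; adjusted p = 0.0480, edgeR). Cxcl5 had 0.174 to 8.93 CPM in suspension and 9.17, 8.37, and 9.19 CPM in the gel. Its within-replicate differences ran from 0.27 in replicate 1 to 4.65 in replicate 3, so the size of its change was poorly defined. Cxcl2 of the same cluster had 3.30 to 117 CPM in suspension and 156, 69.0, and 46.2 CPM in the gel and narrowly missed the threshold (adjusted p = 0.101, edgeR). The monocyte and T cell attractants Ccl3 and Ccl9 were higher by 1.17 ± 0.31 and 0.95 ± 0.24 (SE). Ccl22 and Ccl17, the most characteristic chemokines of mature DCs, differed by 0.22 and 0.12 and did not pass. Without the gel library of replicate 1 or of replicate 3, or with the suspension libraries titled plus CCL19 as the sole control, 0 chemokines passed by edgeR, and 1 passed without the gel library of replicate 2.

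**Figure D2:**
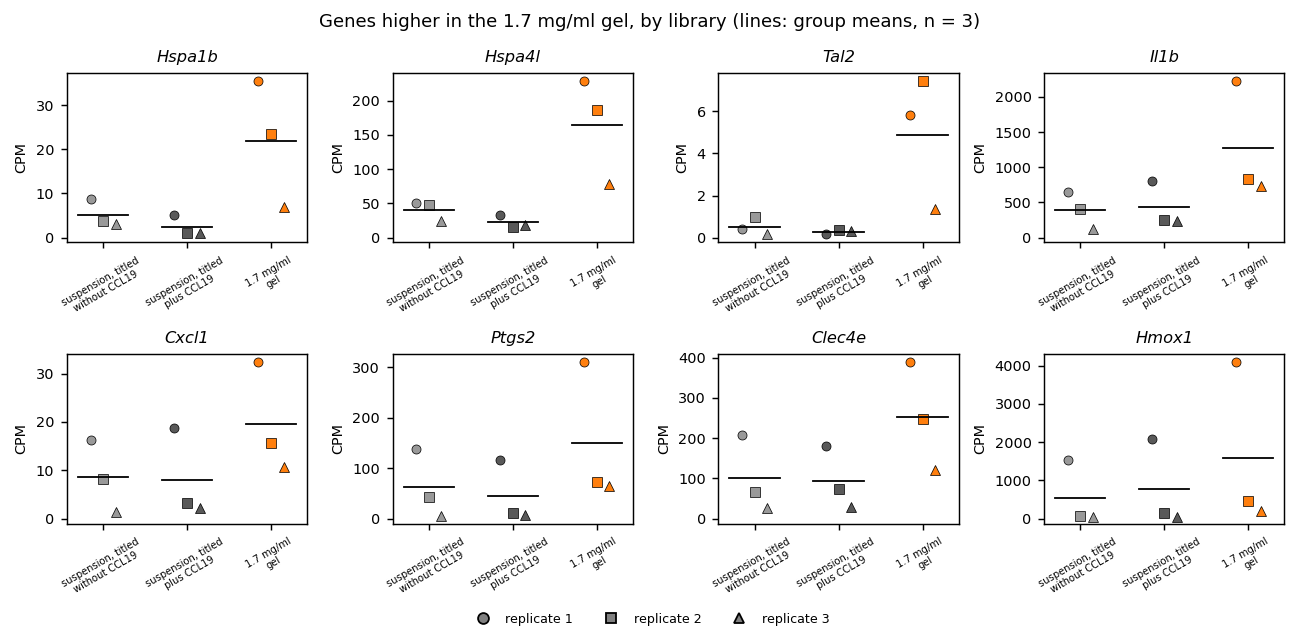
Levels in CPM (y axis) of 8 genes in the 3 libraries of each suspension group and of the 1.7 mg/ml gel, with symbols for the replicate and a line at each group mean. Gel values of Hspa4l, from 77.7 to 229 CPM, lay above all suspension values, whereas those of Il1b, Cxcl1, Ptgs2, Clec4e, and Hmox1 overlapped them. Replicate 1 was the highest gel library for all of these genes but Tal2, whose highest was replicate 2.

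Prostaglandins are lipid mediators made from arachidonic acid by cyclooxygenases. Ptgs2, encoding the inducible cyclooxygenase COX-2 (ENSMUSG00000032487, chromosome 1 from 150100031 to 150108227), had 4.93, 27.6, and 139 CPM as the lowest, median, and highest suspension values and 311, 73.0, and 65.6 CPM in gel replicates 1 to 3. The groups overlapped because of the replicate 1 libraries of suspension, which held 115 and 139 CPM. The fitted difference was 2.03 ± 0.51 (SE; adjusted p = 0.0611, edgeR). Ptgs2os, which is annotated upstream of Ptgs2 on the opposite strand and does not overlap it, rose from 0.215 to 1.47 CPM in suspension to 5.78, 1.71, and 1.58 CPM in the gel (2.07 ± 0.38, SE; adjusted p = 0.0246, edgeR). Ptger2, a receptor of the product prostaglandin E2, was higher by 1.20 ± 0.34 (SE; adjusted p = 0.0936, edgeR). Of 15 eicosanoid genes tested, these 2 coding genes rose and Alox15 fell, against 1.50% and 1.42% of all genes tested. The constitutive Ptgs1 was at a difference of -0.00. Neither Ptgs2 nor Ptger2 passed in the fits without replicate 1, 2, or 3 or without a single 1.7 mg/ml library.

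Receptors for microbial and damage signals were examined next. Of 20 Toll-like receptors and C-type lectins tested, 5 rose and 1 fell (median 0.67), against 1.50% and 1.42% of all genes tested. Clec4e, encoding Mincle, a receptor of mycobacterial glycolipid and of dead cells, had 25.2, 69.8, and 209 CPM as the lowest, median, and highest suspension values and 390, 248, and 121 CPM in gel replicates 1 to 3 (1.65 ± 0.31, SE; adjusted p = 0.0259, edgeR). Its neighbors on chromosome 6 Clec4d and Clec4n, which encode the receptors MCL and Dectin-2, were higher by 1.18 ± 0.26 and 1.00 ± 0.27 (SE). Clec7a, the β-glucan receptor Dectin-1, had 141 to 308 CPM in suspension and 542, 383, and 403 CPM in the gel, without overlap (1.17 ± 0.27, SE; adjusted p = 0.0472, edgeR). Tlr2, which recognizes bacterial lipoproteins, rose by 1.31 ± 0.25 (SE; adjusted p = 0.0263, edgeR), and Tlr4, the LPS receptor, had a difference of 0.83 that did not pass. The endosomal DNA sensor Tlr9 fell, from 19.2 to 74.7 CPM in suspension to 7.47, 17.0, and 14.6 CPM in the gel, with no overlap (-1.48 ± 0.36, SE; adjusted p = 0.0530, edgeR). Of the 5 rises, 1, 1, and 2 passed without replicate 1, 2, and 3.
Macrophages carry several of these receptors. Of 14 macrophage markers, 0 passed by edgeR, 7 had an unadjusted p under 0.05, and 3 were called by DESeq2 with the block, with a median log2 difference of 0.61. Their summed level was 1275 to 6962 CPM in suspension (median 3446) and 3231 to 7854 CPM in the gel, and its part in these rises was not tested.

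Lists of stress genes held a few called members each, where 1.50% of all genes tested were higher. NRF2 is the transcription factor of the oxidative stress response, and 3 of its 16 targets tested rose while 0 fell (median 0.60). Hmox1, encoding the heme-degrading enzyme heme oxygenase-1, had 37.6, 118, and 2083 CPM as the lowest, median, and highest suspension values and 4092, 466, and 194 CPM in gel replicates 1 to 3. The replicates thus differed far more than the conditions, and within replicates the gel exceeded suspension by 1.20, 2.07, and 2.21 (fit 1.74 ± 0.41, SE; adjusted p = 0.0474, edgeR). Prdx1, a peroxidase, and Gclm, a subunit of the enzyme that starts glutathione synthesis, were higher by 1.10 ± 0.26 and 0.99 ± 0.23 (SE). In the integrated stress response, which slows translation and induces ATF4, 2 of 23 genes rose. Atf4 itself had 109, 178, and 410 CPM as the lowest, median, and highest suspension values and 810, 355, and 262 CPM in the gel, and its within-replicate differences of 0.99, 1.00, and 1.19 were nearly equal (fit 1.05 ± 0.23, SE; adjusted p = 0.0379, edgeR). Nupr1, a stress-induced nuclear protein, rose by 1.19 ± 0.33 (SE). Other members did not pass, among them Ddit3 at 0.57 and Asns at -0.38. Without replicate 1, 2, or 3, the NRF2 list held 1, 0, and 1 higher genes by edgeR. The integrated stress response list held 0 in each of these fits. Against the suspension titled plus CCL19 alone, both lists held 0.

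Of 18 p53 targets, 3 rose and 0 fell, with a list median of 0.21. Fas, a death receptor, had 16.0 to 44.4 CPM in suspension and 44.7, 74.7, and 74.0 CPM in the gel, with no overlap (1.06 ± 0.23, SE; adjusted p = 0.0351, edgeR). Eda2r, another receptor of that superfamily, and Gadd45a, a growth arrest gene, rose by 1.36 ± 0.33 and 1.25 ± 0.30 (SE). The canonical targets Cdkn1a and Mdm2 had differences of 0.29 and 0.42 and did not pass. Without replicate 1, 2, or 3, the p53 list held 0, 0, and 1 higher genes by edgeR. Several further lists held 1 higher gene each. Over all genes tested 1.50% were higher, so single calls are not read as a change of a list. Ankrd37, a hypoxia-induced gene and the 1 called among 26 genes of glycolysis and hypoxia, had 0.811, 4.09, and 46.4 CPM as the lowest, median, and highest suspension values and 105, 8.19, and 13.1 CPM in gel replicates 1 to 3. The groups overlapped, the within-replicate differences were 1.31, 0.99, and 3.48, and the fitted difference of 2.06 ± 0.46 (SE; adjusted p = 0.0440, edgeR) fell to 1.18 without replicate 3, where it did not pass. Ier3, an NF-κB-responsive early gene, was 2.84-fold higher and the 1 called among 24 immediate early and AP-1 genes, where Atf3 at 0.86 and Fos at 0.69 did not pass. Dnajb9, of the unfolded protein response, was higher by 0.79 ± 0.22 (SE), and Pdcd1lg2, which encodes the checkpoint ligand PD-L2, rose from 65.1 to 122 CPM in suspension to 130, 126, and 177 CPM in the gel (0.68 ± 0.18, SE; adjusted p = 0.0714, edgeR).

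Several of the largest rises belonged to none of these lists. Tal2, a transcription factor of the basic helix-loop-helix type (ENSMUSG00000028417, chromosome 4 from 53779705 to 53788712), had the largest log2 difference among genes with a proper name, 3.67 ± 0.54 (SE; adjusted p = 0.00448, edgeR). It had 0.153, 0.324, and 0.957 CPM as the lowest, median, and highest suspension values and 5.85, 7.45, and 1.37 CPM in gel replicates 1 to 3, so the suspension values lay near the floor and the groups did not overlap. Cyp1a1, the classic target of the aryl hydrocarbon receptor, was listed at 0 in 2 suspension libraries, reached at most 0.664 CPM in the others, and had 1.93, 1.53, and 0.893 CPM in the gel (3.27 ± 0.69, SE; adjusted p = 0.0351, edgeR). Tlcd2, a membrane protein gene, rose from 0.572 to 2.56 CPM in suspension to 23.2, 8.68, and 3.15 CPM in the gel, without overlap (6.48-fold by the fit; adjusted p = 0.00448, edgeR). Slco4a1, an organic anion transporter, had 8.29 to 91.0 CPM in suspension and 442, 155, and 47.7 CPM in the gel (2.31 ± 0.34, SE; adjusted p = 0.00448, edgeR). Serpinb2, encoding plasminogen activator inhibitor 2, did not overlap between the groups, with 10.9 to 28.3 CPM in suspension and 52.9, 78.0, and 74.8 CPM in the gel (2.02 ± 0.38, SE; adjusted p = 0.0252, edgeR). The remaining named rises were Rnf182, U90926, Rnasek, and Bvht, with adjusted p-values of 0.0351, 0.0459, 0.0544, and 0.0661 by edgeR. Of the 207 higher genes, 180 were protein coding and 25 carried a provisional name.

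Eosinophil transcripts had the lowest median of the lists examined. Of 10 eosinophil markers tested, 7 fell and 0 rose, with a median log2 difference of -2.86. For 6 of the 10, all gel libraries lay below all suspension libraries. Over all genes tested, 1.42% fell and 3.30% lay entirely below. Prg2, encoding the major basic protein of eosinophil granules (ENSMUSG00000027073, chromosome 2 from 84980461 to 84983632), had 83.7, 277, and 1078 CPM as the lowest, median, and highest suspension values and 42.9, 50.0, and 33.9 CPM in gel replicates 1 to 3 (-2.94 ± 0.72, SE; adjusted p = 0.0530, edgeR). Epx, the eosinophil peroxidase, had 19.4 to 163 CPM in suspension and 8.63, 8.49, and 4.52 CPM in the gel (-2.66 ± 0.62, SE; adjusted p = 0.0472, edgeR). Ccr3, the eotaxin receptor, had 1.94 to 9.42 CPM in suspension and 0.770, 0.306, and 0.315 CPM in the gel, 11.9-fold lower by the fit (adjusted p = 0.0404, edgeR). Alox15, a lipoxygenase, had a log2 difference of -3.43 ± 0.57 (SE; adjusted p = 0.0120, edgeR). The ribonuclease genes Ear6 and Ear1 had differences of -3.09 ± 0.51 and -3.66 ± 1.01 (SE), but the Ear genes are near copies and their counts uncertain. Prg3 also fell. Siglecf (-1.97, adjusted p = 0.104, edgeR), Ear2 (-1.40), and Cebpe (-0.50) did not pass.
Summed over 11 markers, the level in replicate 1 was 126 and 158 CPM in suspension against 65.7 CPM in the gel. In replicate 2 it was 212 and 1465 against 94.7 CPM, and in replicate 3 it was 542 and 1007 against 61.8 CPM. The gel was thus below both suspension libraries in each replicate, while the suspension libraries differed widely among themselves. Il5ra was listed at 0 in the 3 gel libraries and at no more than 0.464 CPM in suspension. In bulk RNA, fewer cells of a type and less RNA per cell cannot be told apart. Without replicate 2 of the suspension titled plus CCL19, which had the highest sum and was left out after seeing the data, 6 markers passed, and against the suspension titled without CCL19 alone, 3 passed. Without replicate 1, 2, or 3, the number was 2, 1, or 2.

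**Figure D3:**
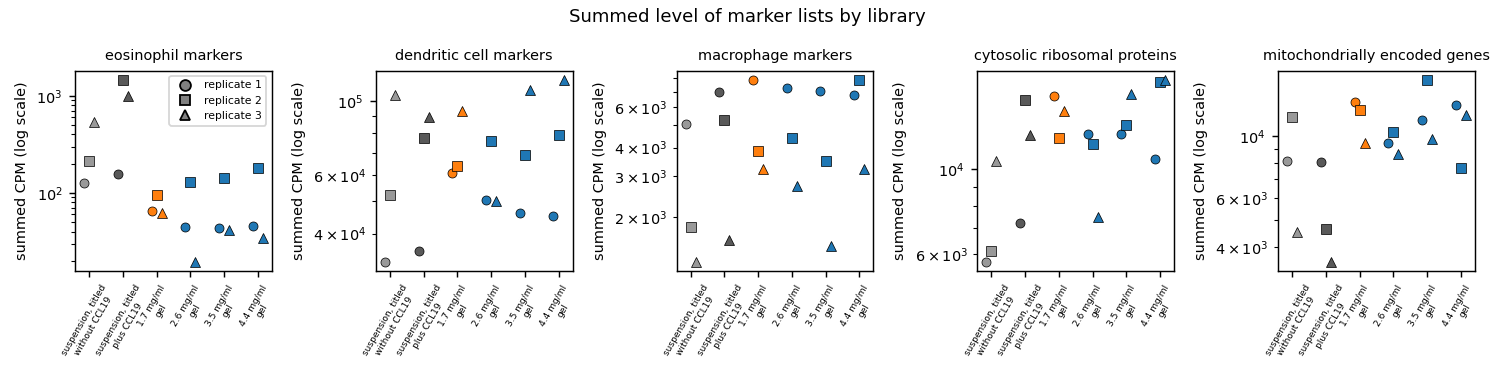
Summed CPM (y axis, log scale) of 5 gene lists in each of the 18 libraries, with symbols for the replicate. The eosinophil sum of the 1.7 mg/ml libraries lay between 61.8 and 94.7 CPM, below all suspension libraries (126 to 1465 CPM), whereas the sums of the other 4 lists overlapped between suspension and gel.

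Other genes among the named falls are expressed by granulocytes or their progenitors. Gata1, a transcription factor of eosinophil, mast cell, and erythroid lineages, had 0.657 to 6.58 CPM in suspension and 0.0770, 0.672, and 0.736 CPM in the gel, where the highest gel value exceeded the lowest suspension value (-2.75 ± 0.62, SE; adjusted p = 0.0442, edgeR). P2rx1, an ATP-gated channel, was 4.66-fold lower. C5ar2, a receptor of complement C5a, and Cd101, an inhibitory membrane protein of myeloid cells, were 8.10- and 5.38-fold lower, with gel values of at most 0.550 and 1.10 CPM. The part of the eosinophil sum in these 4 falls was not tested. Markers of other granulocytes gave few calls. Of 13 neutrophil markers, 0 passed by edgeR, with sums of 1747 to 19201 CPM in suspension and 5126 to 7021 CPM in the gel. Of 10 basophil and mast cell markers tested, 1 passed, the histidine decarboxylase gene Hdc, which was higher, with 52.3 to 145 CPM in suspension and 190, 148, and 131 CPM in the gel (0.87 ± 0.24, SE), although the list median was -0.78. The sum of that list was 162 to 427 CPM in suspension and 199 to 303 CPM in the gel, where Hdc alone had 131 to 190 CPM. A positive difference was found for 2 of the 10 markers. Kit had 27.7 to 54.1 CPM in suspension and 23.3 to 25.1 CPM in the gel. It was the 1 of the 10 entirely below, against 3.30% of all genes tested. Neither Kit nor the defining markers Cpa3 and Mcpt8 passed. Lymphocyte, erythroid, and fibroblast markers (6, 1, and 6 tested) gave 0 calls by edgeR, with Cd3e at no more than 0.0511 CPM in any of the 9 libraries.

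Transcripts of 2 large centrosomal proteins were lower in the gel. The centrosome organizes the microtubules of migrating DCs. Its list of 23 genes tested also holds the Dyrk, Clk, and Hipk kinases. Of these 23 genes, 2 fell and 0 rose (median -0.02), where 1.42% of all genes tested fell. Crocc, encoding rootletin, a fibrous linker between centrioles (ENSMUSG00000040860, chromosome 4 from 141016637 to 141060550), had 3.07, 5.17, and 10.4 CPM as the lowest, median, and highest suspension values and 0.308, 0.855, and 1.31 CPM in gel replicates 1 to 3. The groups did not overlap, and the difference was -2.53 ± 0.57 (SE), 5.78-fold lower (adjusted p = 0.0437, edgeR). Within replicates it was -4.37, -2.35, and -1.27. Cep250, encoding C-NAP1, which anchors rootletin to the centrioles, had 45.5, 78.6, and 113 CPM as the lowest, median, and highest suspension values and 15.7, 50.3, and 51.7 CPM in the gel (-1.10 ± 0.25, SE; adjusted p = 0.0472, edgeR). Both have long transcripts, with 8266 and 10373 exonic bases, and replicate 1 contributed the largest differences. Without replicate 1 or without replicate 2, 0 of the 2 passed by edgeR, and without replicate 3, 1 passed. Dyrk3, a kinase that dissolves membraneless organelles, had 1.10 to 3.79 CPM in suspension (median 1.92) and 5.47, 3.91, and 1.47 CPM in the gel, where replicate 3 lay inside the suspension range. Its difference of 0.75 ± 0.33 (SE) did not pass the threshold (adjusted p = 0.275, edgeR) and passed in 0 of the 18 alternative settings.

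Lists of motility and cytoskeleton genes held 0 or 1 called gene each. Over all genes tested 2.91% were called, so these counts are not read as a result about such genes. Of 24 Arp2/3, WAVE, WASP, and formin genes, 16 integrin genes, and 19 targets of SRF, MRTF, and YAP, 0 passed in either direction by edgeR, with medians of 0.03, -0.13, and 0.12. Among 21 genes of myosin II and RhoA contractility, Arhgap4, a GTPase-activating protein, was called and was lower by 0.92 ± 0.25 (SE). Dock1, an exchange factor for Rac (1 called of 9 DOCK genes), had 8.74 to 18.8 CPM in suspension and 4.47, 6.17, and 6.36 CPM in the gel, with no overlap (-1.03 ± 0.27, SE; adjusted p = 0.0724, edgeR). Rgs12, a brake on G protein signaling (1 called of 9 RGS genes), was 2.06-fold lower. Syne1, encoding the giant nuclear envelope protein nesprin-1, was the 1 called among 19 genes of mechanosensitive channels and the nuclear lamina, with 32.2 to 100.4 CPM in suspension and 10.8, 36.0, and 22.0 CPM in the gel (-1.15 ± 0.33, SE; adjusted p = 0.0968, edgeR). Of 11 genes listed as collagen and matrix receptors, the 1 called was Clec4d, which encodes the C-type lectin MCL described above. The 10 others did not pass. Of 20 matrix metalloproteinases and inhibitors, 0 passed by edgeR. None of the 4 falls passed without replicate 1, 2, or 3.

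In lipid metabolism, 2 of 26 sterol and fatty acid synthesis genes fell and 0 rose (median -0.24), where 1.42% of all genes tested fell. Acaca, acetyl-CoA carboxylase, the committed step of fatty acid synthesis, had 5.16 to 24.9 CPM in suspension and 2.47, 7.82, and 5.83 CPM in the gel (-1.27 ± 0.27, SE; adjusted p = 0.0351, edgeR). Chka, choline kinase alpha, which starts phosphatidylcholine synthesis, had 40.2 to 59.1 CPM in suspension and 85.3, 99.2, and 76.2 CPM in the gel, with no overlap (0.89 ± 0.17, SE; adjusted p = 0.0274, edgeR). It was the 1 called of 11 genes of that pathway. Chka passed in 11 of the 18 alternative settings, and not in the fits without replicate 1, 2, or 3. The remaining named falls, Sall2, Proz, and Tbc1d16, were below 0.68 CPM in every gel library and had log2 differences of -2.41, -2.37, and -2.28.

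Lists of antigen presentation, inflammatory regulation, and cell turnover gave 0 calls by edgeR. These were 12 MHC class II genes (median 0.14), 15 MHC class I genes (0.16), 15 NF-κB subunits and inhibitors (0.05), 12 dual-specificity phosphatases (0.19), 27 interferon-stimulated genes (-0.03), 14 SOCS and interferon regulatory factor genes (0.08), 10 chemokine receptors (0.15), 15 BCL2 family genes (0.18), 8 liver X receptor targets (-0.05), 26 cell cycle genes (-0.10), and 24 genes of the lysosomal proton pump and cathepsins (0.38). Together with the cell marker, motility, and metalloproteinase lists above and 4 long noncoding RNAs of RNA quality, the lists with 0 calls held 316 genes, of which 58 had an unadjusted p under 0.05 by edgeR, 22 were called by DESeq2 with the block, and 0 by DESeq2 without it. Of the 24 lysosomal genes, 9 had an unadjusted p under 0.05 by edgeR, 5 were called by DESeq2 with the block, and 22 had a positive difference. Over all 13844 genes tested, 2176 had an unadjusted p under 0.05 by edgeR and 6716 a positive difference. A gene that was not called is not shown to be the same in both conditions.

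Transcripts of the mitochondrial genome and of ribosomal proteins were counted in the same way. Of 7 mitochondrially encoded genes tested, 2 rose (median 0.86), where 1.50% of all genes tested rose. Transcripts of mt-Nd4 had 350 to 829 CPM in suspension and 1051, 983, and 1011 CPM in the gel, and mt-Co1 had 802 to 3811 CPM in suspension and 5717, 4601, and 2899 CPM in the gel. The sum of the list was 3541 to 11703 CPM in suspension and 9444 to 13317 CPM in the gel. With offsets for GC content and exon length, 0 of these genes passed. Of 35 cytosolic ribosomal protein genes, 4 rose, among them Rpl27, Rps24, and Rpl22, and 0 fell. The median was 0.63, and 34 had a positive difference, as did 6716 of all 13844 genes tested. This list held 9 higher genes with the offsets and 16 by DESeq2 with the block. Without replicate 1, 2, and 3 it held 0, 0, and 2 by edgeR. The sum of the 35 genes was 5723 to 15128 CPM in suspension and 12061 to 15569 CPM in the gel. Ribosomal protein genes have many processed copies, so their counts are uncertain. The part of these groups, or of RNA quality, in the remaining differences was not tested.

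Genes called higher and lower differed in transcript length. The median exon length was 2638 bases for the higher genes, 6189 for the lower genes, and 4058 for all genes tested, and 21.7%, 71.9%, and 38.5% of them exceeded 5000 bases. Their median GC content was 47.5%, 53.8%, and 49.8%. A gradient of the same direction across all genes tested was steep in 1 replicate. In replicate 1, the median log2 difference fell from 0.83 in the shortest decile of genes to -0.50 in the longest. In replicate 2 it ran from 0.05 to -0.03 and in replicate 3 from 0.17 to 0.07. With the offsets, the called genes had median lengths of 4681 bases (higher) and 5145 bases (lower), and 64 of the 71 named genes kept their side of the threshold. Whether the length pattern of replicate 1 belongs to the cells or to the libraries was not tested.

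**Figure D4:**
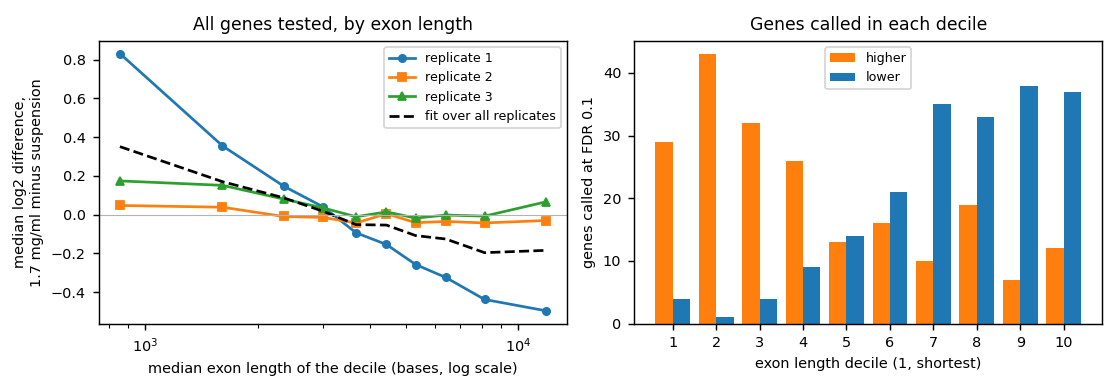
Left, median log2 difference between 1.7 mg/ml and suspension in 10 groups of genes ordered by exon length (x axis, bases, log scale), for each replicate and for the fit. Right, number of genes called higher and lower in each group, where group 1 holds the shortest exons, with 29 higher and 4 lower genes in group 1 and 12 higher and 37 lower in group 10.

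Compared directly with the mean of the 3 denser gels, the 1.7 mg/ml libraries differed in 0 genes by edgeR's quasi-likelihood test (smallest adjusted p = 0.400), with 1146 genes at an unadjusted p under 0.05. DESeq2 with the block called 122 genes, and edgeR without the filter on low counts called 132. Of the 403 genes that separated 1.7 mg/ml from suspension, 70 had an unadjusted p under 0.05 in this comparison, against 1146 of all 13844. The 403 were selected with the same 1.7 mg/ml libraries, so the 70 are not an independent count. The differences of each gel from the same suspension libraries are given side by side, since these comparisons share their controls and are not independent. Chka was higher by 0.89, 1.56, 1.51, and 2.56 on the log2 scale from the loosest to the densest gel, and its 1.7 mg/ml level was below the mean of the denser gels by 0.99 (95% interval of the log2 difference -1.37 to -0.62, for this gene alone). Hspa1b was higher by 2.66, 4.67, 2.99, and 4.77, and its interval against the denser gels was -2.37 to -0.61. For Hspa4l the values were 2.43, 3.62, 2.92, and 3.04. Il1b gave 1.67, 2.07, 1.50, and 2.65, and its interval of -1.01 to 0.20 included 0. Serpinb2 gave 2.02, 2.25, 1.67, and 1.45, with an interval of -0.53 to 1.00. The eosinophil granule gene Prg2 gave -2.94, -3.43, -3.23, and -3.04, with an interval of -0.91 to 1.50, and the eosinophil sum of the denser gels was 19.5 to 179 CPM. Crocc gave -2.53, -2.30, -3.08, and -2.30, with an interval of -1.03 to 1.08. Tlr9 gave -1.48, -1.60, -1.98, and -3.57, and Dyrk3 gave 0.75, 1.63, 1.57, and 2.55, of which the 3 values in denser gels passed against suspension. For Serpinb2, Prg2, and Crocc the interval included 0, and it allowed differences of up to 1.00, 1.50, and 1.08 on the log2 scale.

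**Figure D5:**
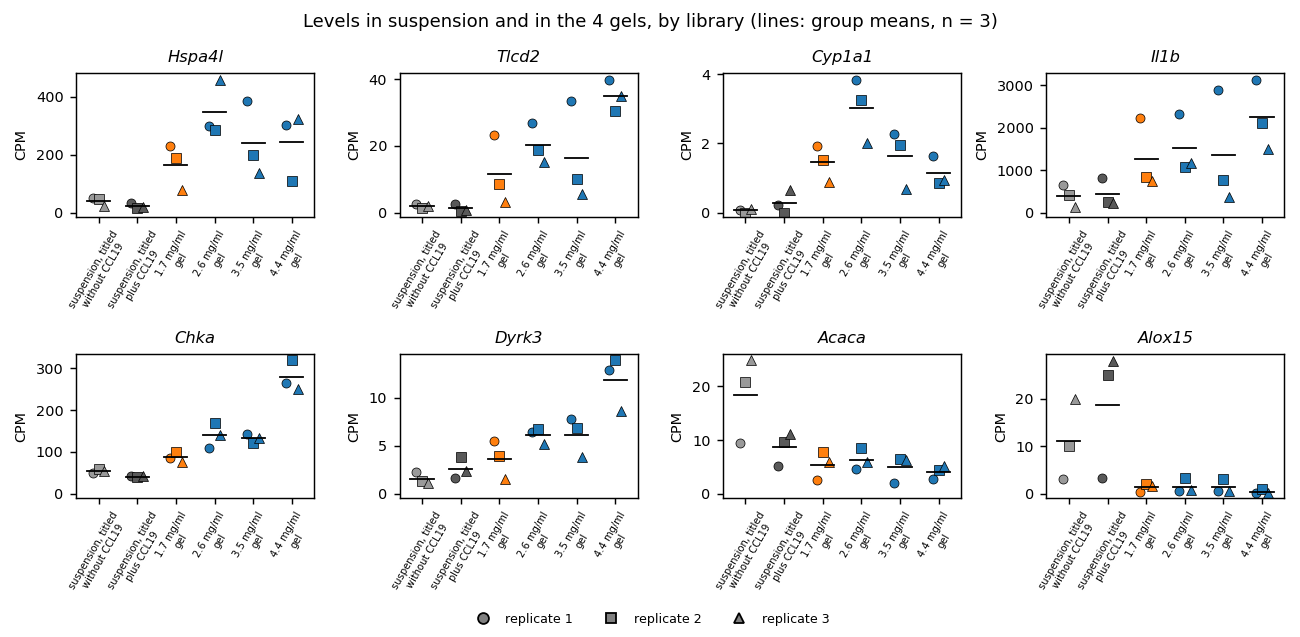
Levels in CPM (y axis) of 8 genes in the 18 libraries by group, with gray for suspension, orange for 1.7 mg/ml, and blue for the denser gels, symbols for the replicate and a line at each group mean. Chka ran from 40.2 to 59.1 CPM in suspension to 76.2 to 99.2 CPM at 1.7 mg/ml and was higher at 4.4 mg/ml, Alox15 was at most 2.02 CPM at 1.7 mg/ml, and Dyrk3 at 1.7 mg/ml overlapped suspension.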

How the data were processed

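Single-end stranded mRNA libraries were deposited by the authors as 1 table of raw counts per gene for 18 libraries. Per the labels and methods, reads were aligned with STAR 2.7.0f to GRCm38. The study's methods name RSEM for TPM values. Whether the count table came from it, and the strand setting of the counting, are not given in the sources used here. Here, 13844 of 29875 genes passed edgeR's filterByExpr. Counts were scaled by TMM and tested with edgeR 4.0.16 (quasi-likelihood F-test, R 4.3.3) in a model with 6 groups and the replicate number, over all 18 libraries, as 1.7 mg/ml minus the mean of both suspension groups. P-values were adjusted by Benjamini-Hochberg over all genes tested, with an FDR of 0.1 after the study's methods. Standard errors were taken from the F statistic, CPM were TMM-scaled, and within-replicate differences used a prior count of 2. Exact permutation tests were two-sided. Replicate numbers pair the libraries because library names of 1 number share a date and lane. Deviations from group means correlated with a mean r of 0.434 over 45 same-number pairs (lowest -0.149), and no libraries were identical. No source says that replicates came from separate animals, so p-values measure the spread between these libraries.
Named genes were the 15 largest rises and 15 largest falls among called genes with a proper name. These also needed a mean of at least 1 CPM and the same sign in all 3 replicates. Up to 4 called genes of each list were added. Other genes, mainly list members that were not called, were chosen after their values were seen. The comparison and the lists were chosen with earlier results of these data known. Positions and exon lengths came from the GRCm38 annotation, promoters from RefSeq. Alternatives included DESeq2 1.42.0, other scaling, filters, controls, and left-out libraries, and the procedure was tested on simulated data. Some genes are not reported here.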

Additional observations from a re-analysis of the deposited data

Results flagged for a closer look

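Among 72 quantities examined over the 6 suspension libraries, 2 (2.78%) had a library far from the others by Dixon's test, where chance alone gives about 1 in 20. For mt-Nd4 the gap to the nearest library was 0.791 of the whole range, and for Syne1 it was 0.69, both above the 95% critical value for 6 libraries. In both genes the distant library was the highest and was replicate 2 of the suspension titled without CCL19. That library therefore lies nearest to the gel for mt-Nd4 and farthest from it for Syne1.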

How the results depend on the processing

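Of the 71 genes examined one by one, 0 changed direction in any setting. Nearly all were chosen because they passed in these libraries. The largest rises and falls also had to share their sign in all 3 replicates. A reversal was therefore unlikely from the start, and its absence is not separate support. The count of 403 (207 higher, 196 lower) depended on the settings. It was 5 (5 higher, 0 lower) without the replicate block, with 1113 genes at an unadjusted p under 0.05, 782 (376, 406) with the compared libraries alone, 1095 (524, 571) by DESeq2 with the replicate block, 141 (61, 80) by DESeq2 with no replicate block, 156 (93, 63) at an FDR of 0.05, and 619 (418 higher) with GC and length offsets in the blocked fit. Against the suspension titled plus CCL19 it was 151 (59, 92), and against that titled without CCL19 it was 199 (95, 104). Leaving out 1 replicate gave 16 to 95 genes (14 to 57 higher, 2 to 38 lower), leaving out 1 of the 1.7 mg/ml libraries gave 10 to 91 (9 to 58 higher, 1 to 33 lower), and leaving out replicate 2 at 4.4 mg/ml, chosen after seeing the data, gave 760 (380, 380). Against the denser gels, 0 genes by edgeR became 122 by DESeq2 with the replicate block, 4 by DESeq2 with no replicate block, and 132 without the filter on low counts. Fits with fewer libraries have fewer degrees of freedom, and their counts lay both below and above 403. The cause of these changes was not tested. With 3 libraries in the gel group, genes that were not called may still have changed.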
